A study of Mus musculus with 6 samples.

Results

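Broad promoter domains are stretches of open chromatin more than 5000 bp wide that the authors' deposited table places at a gene's promoter, within 3 kb of its transcription start. On mouse chromosomes 1, 2, 4, 7, 9, 10, 11 and 13, the table held 2223 such domains among 85319 peaks there and 214414 peaks in all. They were chosen by width, annotation and chromosome. The chromosomes were picked because their overall shift between the groups was small, so the same comparison chose them: medians by chromosome, over tested peaks and on the log2 scale, ran from -0.21 to -0.04 on these 8, against -0.53 to 0.75 on the others. The fold changes and counts of calls given here are therefore a description with no test of their own.

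The data are ATAC-seq profiles of mouse non-small cell lung cancer (NSCLC) organoids, which are small 3-dimensional cultures of tumour cells. In ATAC-seq a transposase inserts sequencing adapters where chromatin is open. Resistant organoids, which withstand immunotherapy, gave 3 libraries and sensitive organoids gave 3, and the authors compared them with DESeq2. The labels give NSCLC as the cell type and name no driver mutation, mouse strain, clone, passage or agent for either group. Other differences between the cultures cannot be told apart from resistance. Since no label tells whether replicate libraries are separate cultures, the p-values speak only for the spread among these 6 libraries, which may be technical. Values per library and depth were not analysed here, because the value columns match no sample label. A positive log2 fold change is taken as higher in resistant organoids, a direction given by nothing but the deposited table's title. In bulk libraries, fewer cells of a type and less open chromatin per cell cannot be told apart.

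Most promoters of active genes are open over a short stretch free of nucleosomes around the start. Some genes carry a much longer open domain that covers the start, the first exon and intron and nearby regulatory elements. Such long domains are known from genes that mark a cell's identity, from immediate early genes and from other highly transcribed genes. Many mammalian promoters lie in CpG islands, where the CpG dinucleotide is frequent, while promoters of tissue-restricted genes often lack one.

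MicroRNA genes inside the domains give sequences that can be read directly. The mature forms shown here come from the 1 domain with a hairpin that was called higher and from the domain of the miR-200 family, a set known for keeping cells epithelial, and they let their seeds be compared. They are from RefSeq, build GRCm38.p6, all on the minus strand, 5′ to 3′, with the seed (bases 2 to 8) in capitals. The Mir199a-1 hairpin lies at chr9:21496495-21496564, Mir200b at chr4:156055681-156055750, Mir200a at chr4:156054896-156054985 and Mir429 at chr4:156053905-156053987.
miR-199a-3p: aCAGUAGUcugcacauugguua
miR-199a-5p: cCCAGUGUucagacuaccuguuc
miR-200b-3p: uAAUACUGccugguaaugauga
miR-429-3p: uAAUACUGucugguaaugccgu
miR-200a-3p: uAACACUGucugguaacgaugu
The seeds of miR-200b-3p and miR-429-3p are identical, and none of the other sequences shown here has the seed of miR-200a-3p.

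The 250 bases upstream of a start are shown for 4 of the genes with the largest changes, to set CpG-poor and CpG-rich promoters side by side in each direction. Prrx1 and Dlx2 had higher domains in resistant organoids, and Fermt1 and Arhgef16 had lower ones. The sequences are from RefSeq, build GRCm38.p6, all of the minus strand, 5′ to 3′, with each CpG in capitals. They lie at chr1:163313651-163313900 for Prrx1, chr2:71546755-71547004 for Dlx2, chr2:132946037-132946286 for Fermt1 and chr4:154299896-154300145 for Arhgef16.
Prrx1: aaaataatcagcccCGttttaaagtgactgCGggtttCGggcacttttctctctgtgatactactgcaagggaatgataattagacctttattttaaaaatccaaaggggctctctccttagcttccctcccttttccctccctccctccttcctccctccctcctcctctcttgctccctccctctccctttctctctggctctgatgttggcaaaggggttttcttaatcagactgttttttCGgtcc
Dlx2: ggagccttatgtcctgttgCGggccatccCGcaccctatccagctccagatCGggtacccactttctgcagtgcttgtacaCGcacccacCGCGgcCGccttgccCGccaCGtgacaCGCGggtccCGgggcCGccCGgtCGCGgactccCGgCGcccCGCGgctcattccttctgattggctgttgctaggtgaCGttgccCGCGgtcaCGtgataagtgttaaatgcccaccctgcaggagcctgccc
Fermt1: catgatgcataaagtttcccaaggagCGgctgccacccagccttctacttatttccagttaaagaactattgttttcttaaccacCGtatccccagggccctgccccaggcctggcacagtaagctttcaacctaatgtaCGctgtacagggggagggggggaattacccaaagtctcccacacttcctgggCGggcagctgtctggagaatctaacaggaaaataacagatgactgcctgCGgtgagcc
Arhgef16: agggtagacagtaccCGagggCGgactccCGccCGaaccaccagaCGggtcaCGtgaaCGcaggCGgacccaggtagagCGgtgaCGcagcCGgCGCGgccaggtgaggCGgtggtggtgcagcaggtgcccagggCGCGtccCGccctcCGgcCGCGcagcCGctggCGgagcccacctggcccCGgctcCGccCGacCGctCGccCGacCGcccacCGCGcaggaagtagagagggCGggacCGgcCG
The stretch of Prrx1 holds 4 CpGs and that of Fermt1 holds 5, against 24 in Dlx2 and 34 in Arhgef16. Observed over expected CpG was 0.32 in Prrx1, 0.29 in Fermt1, 0.89 in Dlx2 and 0.93 in Arhgef16.

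In resistant organoids the broad promoter domains were more often lower than higher. Of 2219 domains with an adjusted p, 22 were higher and 558 lower at an adjusted p under 0.05 in the authors' deposited table, which is 0.991% and 25.1%. Over all 102173 tested peaks the shares called were 5.02% higher and 7.34% lower (12.4% in either direction). On the same 8 chromosomes 2.38% of 38385 tested peaks were higher and 8.23% lower. The rule used this contrast, so nothing is read from the gaps. The median deposited log2 fold change of the domains was -0.30, with quartiles of -0.50 and -0.11. Over all tested peaks it was -0.07, and over those of the same chromosomes -0.14. The median of the domains turned to 0.03 once a trend with mean count and the 5 Mb window medians were removed. The trend was fitted over all tested peaks, the domains included. In the top decile of the domains' mean count, these chromosomes held 222 domains and 41 other tested peaks. Part of the domains' own shift may thus be removed with the trend, so nothing is read from a median near 0. Most changes were small: 73.1% of the domains lay within 0.5 of 0 on the log2 scale. A 2-fold change together with an adjusted p under 0.05 was reached by 5 higher and 110 lower domains, where the shares over all tested peaks were 3.65% and 3.45%.

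**Figure D1:**
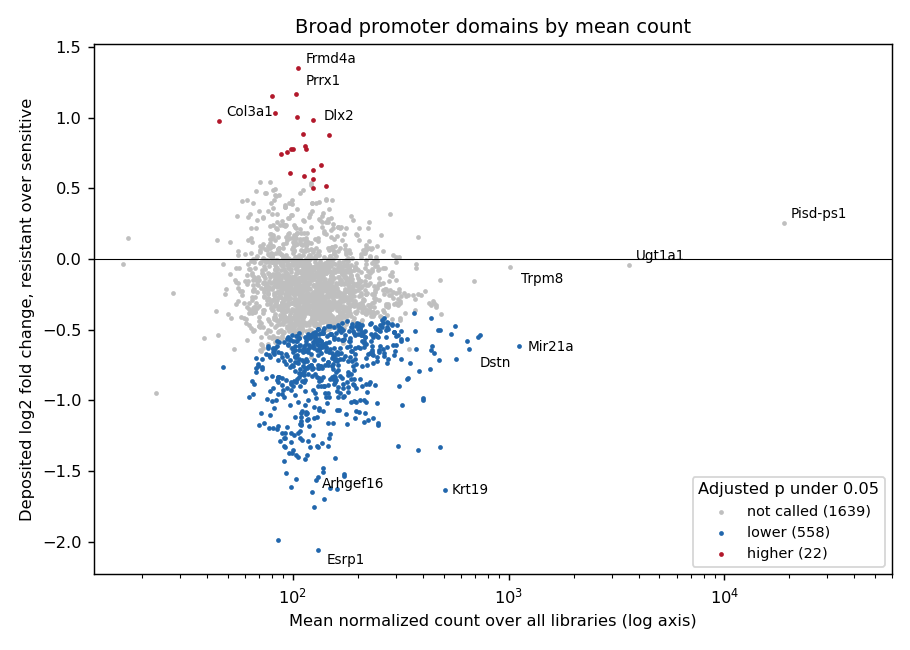
Deposited log2 fold change (resistant over sensitive, vertical axis) of each of the 2219 tested broad promoter domains against its mean normalized count over all libraries (log axis), coloured by call at an adjusted p under 0.05. The 22 higher domains lie between 0.50 and 1.35, the 558 lower ones reach -2.06 at Esrp1, and the 2 strongest domains, Pisd-ps1 and Ugt1a1, were not called.

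The 22 higher domains included those of Frmd4a, Prrx1, Dlx2 and Col3a1. The largest rise, 1.35 ± 0.21 (SE) in the authors' deposited table (adjusted p = 1.61e-08), was at Frmd4a, a scaffold protein of cell polarity, at chr2:4297400-4302720. Prrx1, a homeobox factor of limb and craniofacial mesenchyme, rose by 1.17 ± 0.24 (SE, adjusted p = 3.56e-05 in the deposited table) over a domain of 7901 bp. Dlx2, a homeobox factor of the branchial arches and forebrain, had 0.98 ± 0.18 (SE), again from the deposited table. The domain assigned to Apol7d, at chr1:71649310-71655070 with 1.03 ± 0.23 (SE), also holds the start of Fn1, which encodes the matrix protein fibronectin. Col3a1, which encodes the chain of type III collagen, had the only domain of any collagen chain on these chromosomes, with 0.97 ± 0.29 (SE, adjusted p = 0.00931) in the deposited table. Its mean normalized count of 45.6 lay under the lower quartile of all domains, 97.0. Mrgprf, an orphan G protein-coupled receptor, had 0.88 ± 0.17 (SE).

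The other higher domains were named after their values were seen. Among them, in the authors' deposited table, were Serpinh1, the collagen chaperone, at 0.63 ± 0.19 (SE), Ddr2, a receptor tyrosine kinase for fibrillar collagen, at 0.59 ± 0.19 (SE), and Mxra8, a matrix remodelling associated membrane protein, at 0.50 ± 0.18 (SE). The signalling genes Ror2, a receptor for non-canonical Wnt ligands, and Fgf7, a growth factor that stromal cells make for epithelia, had 0.60 ± 0.21 and 0.51 ± 0.18 (SE). Thbd, the thrombin receptor thrombomodulin, had 0.74 ± 0.21 (SE), and Nrn1, a membrane-anchored neurite growth factor, had 0.89 ± 0.22 (SE). The remaining higher domains were at Capn2, Tank, Eva1b, Akap13, Gramd1b, Phldb1 and the predicted gene Gm19705, between 0.57 and 0.80. Of the 22, 21 kept the call after the window medians were subtracted (1.9% of all tested peaks were then called higher), and Ror2 was the one that did not. All 22 kept it after removal of the trend with mean count, alone or with the window medians.

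**Figure D2:**
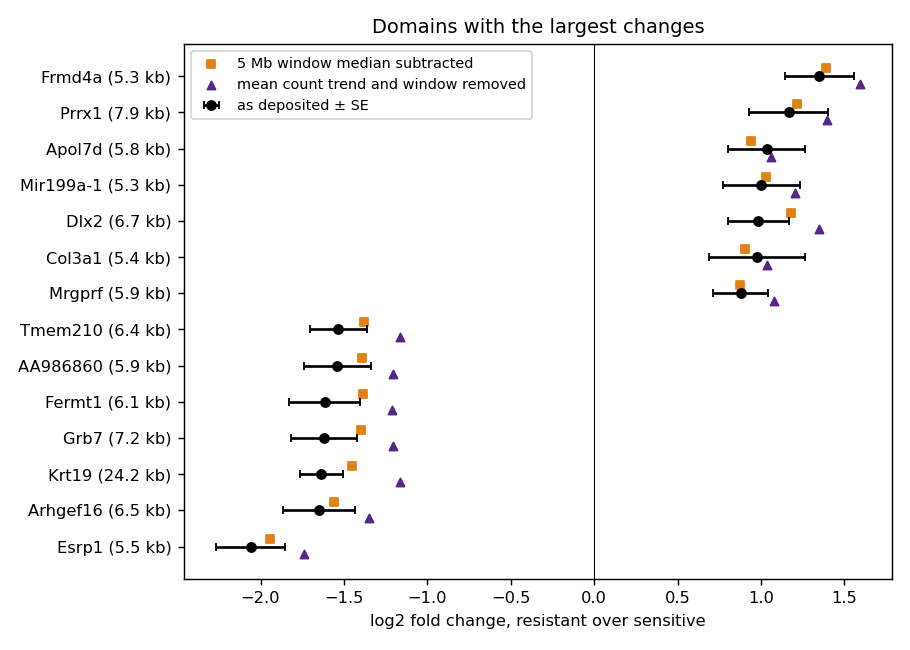
Deposited log2 fold change with its standard error (black) of 7 of the 8 domains with the largest increase and 7 of the 8 with the largest decrease in resistant organoids, 1 domain per gene (the one with the higher mean count), with the values after subtraction of the 5 Mb window median (orange) and after removal of trend and window (purple); widths are in brackets. Esrp1 stood at -2.06 as deposited and -1.74 after both removals, and Frmd4a at 1.35 and 1.59.

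The largest falls included domains of the epithelial genes Esrp1 and Krt19. Esrp1, the regulator of epithelial splicing, had the lowest value of any tested domain, -2.06 ± 0.21 (SE, adjusted p = 4.48e-20 in the authors' deposited table), over 5491 bp at chr4:11384320-11389810. Krt19, a keratin of simple epithelia, had -1.63 ± 0.13 (SE, adjusted p = 1.68e-32) across a domain of 24211 bp. With 1 domain per gene, other large falls in the deposited table were at Arhgef16, an exchange factor for small GTPases (-1.65 ± 0.21, SE), Grb7, an adaptor of receptor tyrosine kinases (-1.62 ± 0.20, SE), and Fermt1, the integrin activator kindlin-1 of epithelia (-1.62 ± 0.22, SE). AA986860 was at -1.54 ± 0.20 (SE). The domain assigned to Tmem210, at -1.53 ± 0.17 (SE), also holds the starts of Lrrc26, a potassium channel subunit of secretory epithelia, and of Grin1os. Lower-count domains of genes with 2 domains are left out of that selection, and 2 of them, named after their values were seen, were at -1.99 ± 0.43 (Arhgap32) and -1.70 ± 0.20 (Arhgef10l, SE). The 7 domains from Esrp1 to Tmem210 kept the call after both removals, with values from -1.74 at Esrp1 to -1.16 at Krt19.

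Most domains of epithelial identity genes were lower in resistant organoids. The list had 27 domains at 26 genes, and 24 were lower and 0 higher, with a median of -0.90 in the authors' deposited table against -0.07 over all tested peaks. Among all domains 25.1% were lower with a median of -0.30. Of all tested peaks on these chromosomes 8.23% were lower, with a median of -0.14. After subtraction of the window medians 22 were lower and the median was -0.75, when 14.2% of all domains and 3.95% of all tested peaks were lower. After removal of trend and window 12 were lower and the median was -0.53, when 6.49% of all domains and 2.87% of all tested peaks were lower. Further list members named here and in the following lists were in part chosen after their values were seen.

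Among transcription factors of epithelia, Ehf fell by 1.27 on the log2 scale, Elf3 by 1.03, Grhl3 by 0.91 and Klf4 by 0.54 in the authors' deposited table. Elf5, at -0.63 ± 0.23 (SE, adjusted p = 0.053), was not called. At cell junctions, the tight junction genes Cldn7, F11r and Tjp3 were at -1.12, -1.16 and -0.65, the polarity gene Pard6b at -0.79, and the desmosome genes Dsp and Jup at -0.74 and -0.64. Genes of attachment to the basement membrane were mixed. In the deposited table the hemidesmosome integrin Itgb4 (-0.83), Itga3 (-0.85) and the anchoring filament gene Lad1 (-0.98) were lower, while Itga6 (-0.41 ± 0.23, SE) was not called.

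Membrane serine proteases and their inhibitors, which work together on epithelial surfaces, were all lower in the authors' deposited table. St14 (matriptase) was at -1.13 and Prss8 (prostasin) at -1.0. Of their Kunitz-type inhibitors, Spint1 had 2 domains at -1.48 ± 0.19 and -0.90 ± 0.20 (SE), and Spint2 had 1 at -0.85 ± 0.17 (SE). Erbb3, the kinase-impaired neuregulin receptor, was at -1.02, Evpl (envoplakin) at -0.98 and Sfn (the 14-3-3 protein stratifin) at -0.83. Narrower promoter peaks of the same list on these chromosomes were less often called, 15 lower of 57, and their median was -0.45. Over all genes, 5.7% of narrower promoter peaks on these chromosomes were lower, with a median of -0.15, against 25.1% and -0.30 for the domains. The 2 kinds of peak thus differ in their share of calls outside this list too. The difference within the list was not tested.

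**Figure D3:**
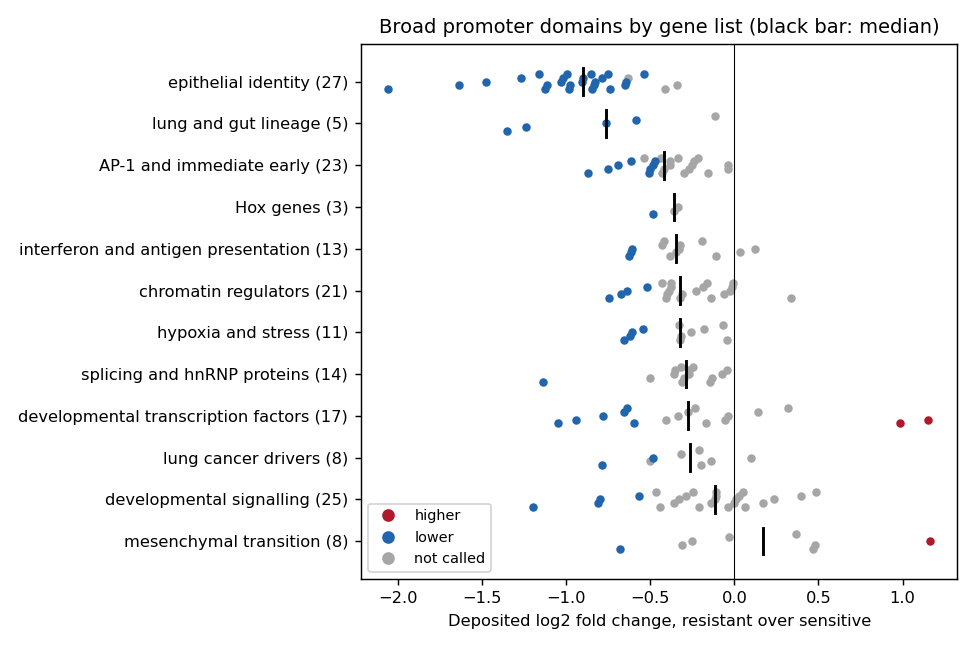
Deposited log2 fold change (resistant over sensitive) of each broad promoter domain in 12 gene lists, with the number of domains in brackets, the median as a black bar and colours for the call. The 27 epithelial identity domains lie between -2.06 and -0.34, and the 8 mesenchymal transition domains between -0.68 and 1.17.

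Lineage and patterning factors went both ways. Their counts stand beside 0.991% higher and 25.1% lower among all domains, and 5.02% and 7.34% over all tested peaks. In the lung and gut lineage list 4 of 5 domains were lower in the authors' deposited table, among them Foxa2, a pioneer factor of endoderm and airway, at -1.24 ± 0.17 (SE), Cebpa, a factor of alveolar and liver cells, at -0.76 ± 0.16 (SE) and Etv4, an ETS factor of lung branching, at -0.59 ± 0.18 (SE). Cebpb, with -0.12 ± 0.14 (SE), was not called. Of 17 developmental transcription factor domains, 2 were higher, among them Dlx2, and 6 were lower, among them Foxq1 (-1.05 ± 0.19, SE), Tfap2b (-0.94 ± 0.17, SE) and Otx1 (-0.78 ± 0.18, SE). After removal of trend and window 2 of the 5 lineage domains were lower, and 1 of the developmental factor domains was lower and 3 were higher. Among all domains 3.79% were then higher and 6.49% lower, and over all tested peaks 2.21% and 2.87%. Foxc1, at 0.32 ± 0.19 (SE), was not called as deposited and was called higher after removal of the trend alone (0.58) and of both (0.66). The Hox list had 3 domains, all in the Hoxb cluster: 1 of Hoxb3 was lower at -0.48 ± 0.15 (SE), while the other of Hoxb3 and that of Hoxb2 were at -0.36 and -0.34. The lower one was no longer called after the window medians were subtracted (-0.26, adjusted p = 0.487), and it was at -0.05 after both removals.

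Of 8 domains at mesenchymal transition genes, 1 was higher (Prrx1) and 1 lower, a domain of the actin-binding tropomyosin gene Tpm1 at -0.68 ± 0.14 (SE) in the authors' deposited table. Among all domains 0.991% were higher and 25.1% lower, and over all tested peaks 5.02% and 7.34%. A second Tpm1 domain, 18871 bp wide, was at -0.31 ± 0.16 (SE). Vim, the mesenchymal intermediate filament, had 0.48 ± 0.23 (SE, adjusted p = 0.173), and the 2 domains of the receptor tyrosine kinase Axl had 0.37 ± 0.21 and 0.47 ± 0.22 (SE). None of these 3 was called as deposited, and all 3 were called higher after removal of the trend, with or without the windows (0.70, 0.74 and 0.81 after both). Tgfbr2 (-0.03) and Tgfb1 (-0.25), a receptor and ligand of transforming growth factor beta, were not called.

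Markers of other cell types were sparse among the broad domains. Of 12 immune cell genes with a promoter peak on these chromosomes, 0 had a broad domain, and their 7 tested narrower promoter peaks held 0 calls in either direction. Of 9 endothelial genes 1 had a domain, Esam, with 0.09 ± 0.22 (SE). Of 11 fibroblast genes 1 had a domain, Prrx1, which is also on the mesenchymal list. Narrower promoter peaks of the fibroblast list numbered 12, with 3 higher, 0 lower and a median of 0.46 in the authors' deposited table. Their part in the higher broad domains was not tested.

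Immediate early genes, which answer growth factor and stress signals within minutes, had 23 domains at 22 genes. Of these, 0 rose and 8 fell by the authors' deposited test, to be read beside the 25.1% of all domains and 7.34% of all tested peaks that were lower. The median was -0.42, against -0.30 for all domains. After removal of trend and window the median turned to 0.09, against 0.03 for all domains, and the calls to 0 in each direction. Among all domains 3.79% were then higher and 6.49% lower, and over all tested peaks 2.21% and 2.87%. Lower in the list as deposited were, among others, Errfi1, a feedback inhibitor of the EGF receptor (-0.87 ± 0.17, SE), Atf3, a stress-induced factor (-0.75 ± 0.17, SE), Plk3 (-0.69 ± 0.17, SE), Fosb (-0.50) and Klf6 (-0.47). Jun, an AP-1 subunit, at -0.43 (adjusted p = 0.0558) and Dusp6, a phosphatase of ERK, at -0.42 (adjusted p = 0.0806) were not called. Btg2, with one of the widest domains of the list at 27081 bp, was at -0.16 ± 0.13 (SE).

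The other pathway lists held 0 higher domains and between 1 and 4 lower ones each, to be read beside the 25.1% of all domains and 7.34% of all tested peaks that were lower. The interferon and antigen presentation list had 13 domains with 3 lower and a median of -0.35. The lower ones in the authors' deposited table were Isg20, an antiviral exonuclease, at -0.62 ± 0.17 (SE) and both domains of the ubiquitin ligase Trim25, at -0.63 and -0.61. Ifngr1 (-0.35), Socs3 (-0.32 ± 0.14, SE) and both Irf1 domains (-0.42 and -0.43) were not called. Under hypoxia and stress 4 of 11 were lower: Adm (-0.65 ± 0.15, SE), Hspa5 (-0.62 ± 0.16, SE), Ldha (-0.61 ± 0.16, SE) and Trib3 (-0.55). After removal of trend and window, no domain of either list was called, and the medians were 0.02 and 0.08. Among all domains 3.79% were then higher and 6.49% lower, and over all tested peaks 2.21% and 2.87%.

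Chromatin regulators had 21 domains with 4 lower in the authors' deposited table, the remodeller Chd3 (-0.75 ± 0.17, SE), Arid5b (-0.67 ± 0.18, SE), the histone H3 lysine 27 demethylase Kdm6b (-0.52 ± 0.15, SE) and H3f3b, a gene for the replication-independent histone H3.3 (-0.64). After the windows 2 of the 21 were lower, and after both removals 0 were, when the list's median was 0.06 against -0.33 as deposited. Of all domains 14.2% were lower after the windows and 6.49% after both, and of all tested peaks 3.95% and 2.87%. Other domains of Arid5b (-0.19), Kdm6b (-0.23) and H3f3b (-0.38) were not called as deposited. The lower domain of H3f3b lies 2313 bp from the gene's start, while the uncalled one covers that start. The Polycomb genes Cbx2 (-0.14), Cbx8 (-0.33) and Pcgf2 (-0.0081) were not called. Splicing and hnRNP proteins had 14 domains with 1 call, a domain of Hnrnpl that was lower at -1.14 ± 0.20 (SE), next to 2 uncalled ones of the same gene at -0.36 and -0.07. Among 25 domains at developmental signalling genes 4 were lower: Rnf43, a ubiquitin ligase that removes Wnt receptors (-1.20 ± 0.23, SE), the ligand Wnt4 (-0.81 ± 0.21, SE), Nuak2, an AMPK-related kinase (-0.80 ± 0.16, SE), and 1 of 4 domains of Smad3 (-0.57 ± 0.15, SE). After both removals 1 of these 25 was lower and 3 were higher, with a median of 0.18 against -0.11 as deposited. Among all domains 3.79% were then higher and 6.49% lower, and over all tested peaks 2.21% and 2.87%. The Hippo effectors Yap1 (-0.0043 ± 0.19, SE) and Tead1 (0.01 ± 0.14, SE) were not called. Of 8 domains at lung cancer drivers, Erbb2 (-0.79 ± 0.18, SE) and Bcl2l1 (-0.48 ± 0.15, SE) were lower. After the windows Erbb2 was still called (-0.56) and Bcl2l1 was not (-0.22), and after both removals neither was (-0.36 and 0.04), with a list median of 0.11. Nfe2l2 (-0.32 ± 0.14, SE), its inhibitor Keap1 (-0.20), Ccnd1 (0.10) and Cdkn2a (-0.14) were not called.

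The widest and strongest domains changed little or fell by modest amounts. The domain of the pseudogene Pisd-ps1 spanned 77071 bp with a mean normalized count of 18828, and its log2 fold change in the authors' deposited table was 0.25 ± 0.09 (SE, adjusted p = 0.056). Its 244.3 counts per kb compare with a median of 18.4 for the domains, and reads of a pseudogene may be shared with its parent gene, so the value is uncertain. Ugt1a1, a bilirubin-conjugating enzyme of a locus with shared exons, had 71501 bp, a count of 3617 and -0.04 ± 0.11 (SE). Trpm8, the cold receptor channel, begins 10 bp after that domain and had -0.06 ± 0.11 (SE). Ugt1a1 and Trpm8 had 50.6 and 35.0 counts per kb, also above the median of 18.4. Lower in the deposited table were the 38831 bp domain of Dstn, an actin-depolymerising factor (-0.64 ± 0.12, SE), the 36901 bp domain of the adaptor gene Shb (-0.54 ± 0.11, SE) and the 21431 bp domain of Plekhg2, which also covers Zfp36 (-0.55 ± 0.14, SE). After the window medians were subtracted Pisd-ps1 was called higher at 0.46, Shb stayed lower at -0.42, and Dstn (-0.35) and Plekhg2 (-0.31) were no longer called. After removal of the trend, alone and with the windows, Shb was not called at -0.13 and -0.07, nor were Dstn and Plekhg2. Pisd-ps1 was then called higher at 0.84 and 0.98, Ugt1a1 at 0.47 in each and Trpm8 at 0.38 and 0.39. In the top decile of the domains' mean count these chromosomes held 222 domains and only 41 other tested peaks. Few other peaks of these chromosomes thus set the trend at such counts, and nothing is read from the higher calls after its removal.

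MicroRNA hairpins lay in 52 of the domains, 62 hairpins in all. Of these domains 1 was higher and 16 were lower in the authors' deposited table, with a median of -0.28; after subtraction of the window medians 2 were higher and 6 lower, and after both removals 3 and 1. The 16 are 30.8% of these domains, beside 25.1% of all domains and 7.34% of all tested peaks. After the windows 1.67% of all domains were higher and 14.2% lower, and of all tested peaks 1.9% and 3.95%. After both removals 3.79% of all domains were higher and 6.49% lower, and of all tested peaks 2.21% and 2.87%. The domains with a hairpin were named after their values were seen, apart from Mir199a-1 and Mir21a. The higher one holds Mir199a-1, a microRNA of mesenchymal cells whose mature forms are given above, and had 1.00 ± 0.23 (SE, adjusted p = 0.000395). The miR-200b, miR-200a and miR-429 cluster lies in the 13031 bp domain assigned to Ttll10, at chr4:156048970-156062000, which had -1.0 ± 0.16 (SE, adjusted p = 6.29e-08) in the deposited table. It kept the call after the window was subtracted (adjusted p = 1.31e-05) and after both removals (-0.64), when Mir199a-1 was at 1.20 and still called. Mir1953 had -1.01 ± 0.17 (SE). The domain of Rassf7 with Mir210, the hypoxia-induced microRNA, had -0.71 ± 0.15 (SE). After both removals neither was called, at -0.50 and -0.32. Mir21a, a microRNA abundant in tumours, had a 31451 bp domain with a mean count of 1116 and -0.61 ± 0.14 (SE), which was not called after window subtraction. The domain with Mir132 and Mir212 (assigned to Hic1) was at 0.22 ± 0.19, and that of Mir146 at 0.32 ± 0.21 (SE), both uncalled as deposited. The Mir146 domain was called higher after the windows (0.63, adjusted p = 0.042) and after both removals (0.79), and the Hic1 domain after both (0.61).

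Several genes carried more than 1 domain, either along alternative starts or as neighbours split by a short gap. Of 191 genes with at least 2 tested domains, 32 had all of them lower, 70 had some lower, 86 had 0 calls, and 4 had 1 higher. Among single domains 25.1% were lower and 0.991% higher, and over all tested peaks 7.34% and 5.02%. A gene with several domains has more occasions for a call, so nothing is read from the counts by gene. The predicted gene Gm19705 had 1 higher (0.80) and 1 lower (-0.53). The median spread between the highest and lowest domain of a gene was 0.31 on the log2 scale. All 4 domains of Baiap2, a scaffold of actin protrusions, were lower in the authors' deposited table, from -0.89 ± 0.16 to -0.46 ± 0.16 (SE), and none of the 4 was called after both removals. Of the 4 domains of Fam129b 2 were lower (-0.71 and -0.53), while Actn4, an actinin (-0.47 to 0.14), and Aopep, an aminopeptidase (-0.33 to 0.11), had 4 domains each with 0 calls. The 3 domains of Etl4, at -1.09, -1.23 and -1.30, were named after their values were seen and stayed lower after both removals. Plekha6, named likewise, differed within the gene: 1 domain was lower at -1.17 ± 0.21 (SE), and another was at 0.40 ± 0.22 (SE).

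Other peaks of the same genes mostly pointed the same way. Of 16 genes with a higher domain and other tested peaks, 14 (87.5%) had a median of the other peaks above 0, and 9 had at least 1 other peak called higher in the authors' deposited table. Of 421 genes with a lower domain, 360 (85.5%) had a median below 0, and 208 (49.4%) had another lower peak. For 1194 genes with an uncalled domain the share with the same sign was 65.3%. Of these genes 280 (23.5%) had another peak that was lower and 117 (9.8%) another that was higher. The median over genes was 0.77 for the higher domains and 0.31 for their other peaks, and -0.72 for the lower domains and -0.30 for their other peaks. Peaks of a gene share libraries and a regional shift, so these shares are a description. The called domains were picked by their own values and the other peaks were not. Smaller medians at the other peaks were thus likely in advance, and nothing is read from them. For uncalled domains, the median of the other peaks was closer to 0 than the domain in 621 of 1194 genes. Prrx1 had 9 other peaks with a median of 1.07, 6 of them higher. Krt19 had 2 others, both lower, with a median of -1.32. At Esrp1, 5 other peaks had a median of -0.15 with 1 of them lower, and at Dlx2, 5 others had a median of 0.01 with 0 called.

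Wider domains were called lower more often. The share lower was 15.8% of 852 domains between 5 and 6 kb, 25.4% of 787 up to 8 kb, 32.7% of 315 up to 10 kb, 43.4% of 244 up to 20 kb and 14 of 21 (66.7%) above that. The median log2 fold change in the authors' deposited table went along these classes with -0.26, -0.30, -0.32, -0.38 and -0.55. The median standard error also shrank along them, from 0.20 in the narrowest to 0.13 in the widest, and the mean count grew from 99.2 to 563. Of the 265 tested domains over 10 kb, 0 were called higher by the authors' DESeq2 test, and 1 was higher at an unadjusted p under 0.05. The part of count and error in this order was not tested.

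Within deciles of mean count, the medians of the domains lay close to those of narrower promoter peaks from the second decile to the eighth, while the domains were called lower more often. In the second decile of mean count, from 79.4 to 91.7, the median was -0.24 for 222 domains and -0.25 for 516 narrower promoter peaks of the same chromosomes in the authors' deposited table, against -0.42 for 170 broad peaks outside promoters. In the fourth decile, from 103 to 112, the same medians were -0.32, -0.30 and -0.40. In the first decile the domains had a median of -0.21 and narrower promoter peaks one of -0.13. The shares called lower in the second decile were 18%, 11% and 31.2%. From the second decile to the eighth, between 18% and 29.7% of the domains were lower, against 5.71% to 14.3% of narrower promoter peaks. The difference in shares was not tested. Over all counts, broad peaks outside promoters had a median of -0.39 (448 lower and 27 higher of 1206) and narrower promoter peaks one of -0.15 (613 lower and 165 higher of 10753). Broad promoter domains on the other chromosomes had a median of -0.23, with 830 lower and 275 higher of 3073.

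**Figure D4:**
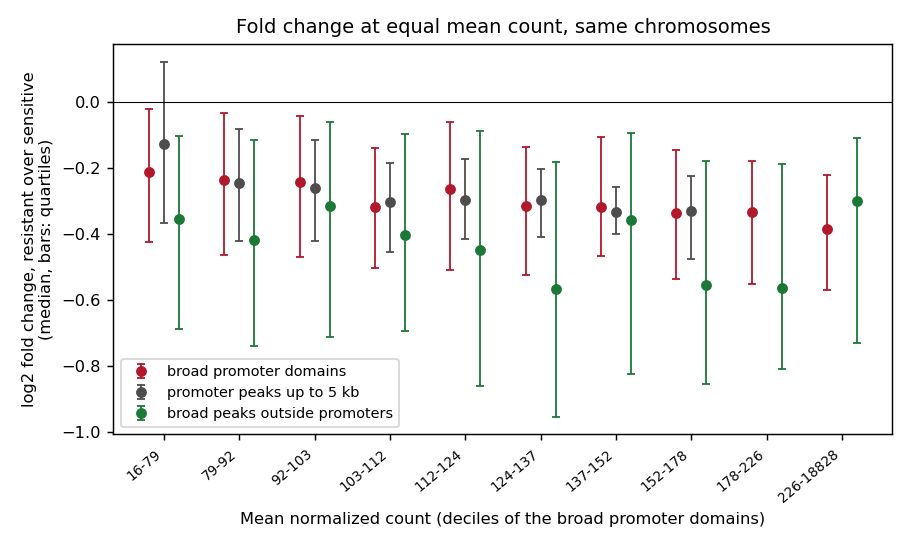
Median log2 fold change (resistant over sensitive, points) with quartiles (bars) in deciles of the domains' mean normalized count, for broad promoter domains, promoter peaks up to 5 kb wide and broad peaks outside promoters on the same chromosomes; the last 2 deciles hold under 20 narrow promoter peaks and show none. The domain medians run from -0.21 in the first decile to -0.38 in the last.

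Removing larger shifts left the higher calls and thinned the lower ones. After subtraction of the median of each 5 Mb window, 37 domains were higher and 314 lower, with a median of -0.15, where 1.9% and 3.95% of all tested peaks (5.85% together) were called. After removal of the trend with mean count, 89 were higher and 224 lower (6.23% and 4.71% over all tested peaks, 10.9% together), with a median of -0.03. The domains were among the peaks that this trend was fitted on. After both, 84 were higher and 144 lower (2.21% and 2.87%, 5.08% together). Of the 558 lower domains 313, 224 and 144 kept the call, and 0 of the called domains were called in the opposite direction. By chromosome, as deposited, the share lower was 33.0% of 466 domains on chromosome 11 and 12.0% of 117 on chromosome 13, and between 22.7% and 24.6% on the other 6.

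In structure, the domains had a median width of 6471 bp (quartiles 5641 and 8091), and 267 were over 10 kb. Their median mean normalized count was 123.3, and per kb of width it was 18.4, against 14.2 for narrower promoter peaks, 15.3 for broad peaks outside promoters and 12.7 over all tested peaks. They were 5.78% of the tested peaks of these chromosomes and held 16.5% of the summed mean counts. The median standard error was 0.19 on the log2 scale, against 0.35 over all tested peaks. A start of exactly 1 gene lay inside 1429 domains, 2 starts in 531 and 3 or more in 65, and 509 had starts on both strands. The share lower was 26.0% with 1 gene and 22.5% with 2 or more. The next peak lay within 1 kb of 1189 domains.

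The starts inside the domains were rich in CpG. For 2427 RefSeq starts inside 1565 domains, observed over expected CpG in the 300 bp around the start (250 upstream and 50 downstream) had a median of 0.76, against 0.73 at 5233 starts in narrower promoter peaks, 0.21 at 8059 starts in no peak and 0.38 over all starts of these chromosomes. The domains that changed were poorer in CpG: the median was 0.44 at 15 starts in higher domains and 0.67 at 536 starts in lower ones, against 0.79 at 1871 starts in uncalled ones. A ratio over 0.6 was found at 33.3%, 57.5% and 73.5% of these. Prrx1 and Fermt1, printed above, are CpG-poor examples, and Dlx2 and Arhgef16 are CpG-rich ones.

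**Figure D5:**
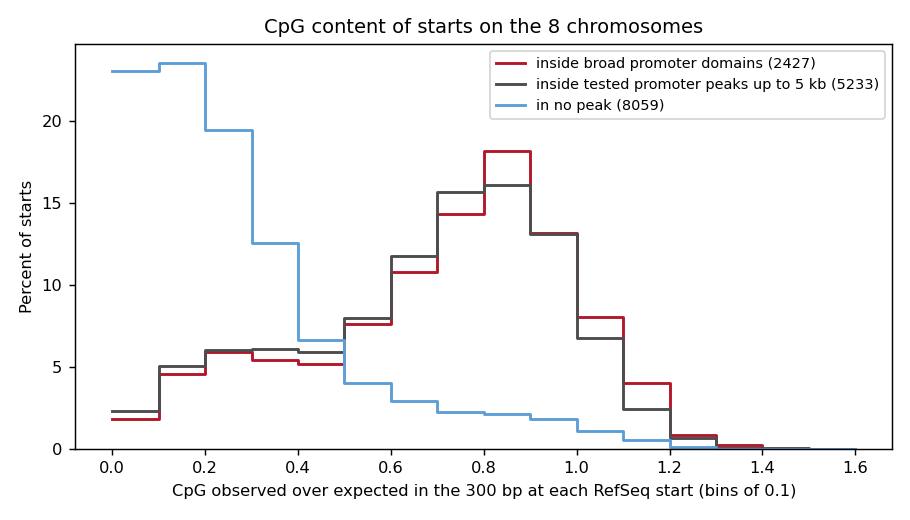
Distribution of observed over expected CpG (horizontal axis, bins of 0.1) in 300 bp at RefSeq starts inside broad promoter domains, inside tested promoter peaks up to 5 kb and in no peak, as a percent of the starts of each kind. Starts inside broad domains peak above 0.6 with a median of 0.76, and starts in no peak have a median of 0.21.

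Short motifs were counted on both strands in the same 300 bp, and none of those given here contains another. CACCTG, the E-box bound by ZEB and SNAIL factors, was in 2 of 15 starts in higher domains (13.3%), 26.1% of starts in lower ones and 15.8% in uncalled ones, against 20.2% of all 32851 starts in the sequence table. The Arhgef16 stretch holds it. TGANTCA, the AP-1 site, was in 3 of 15 (20.0%), 8.58% and 5.34%, against 7.81% of all starts. GGGCGG, the GC box, was in 6 of 15 (40%), 61.6% and 67.3%, against 35.7% of all, and CCGGAAG, an ETS site, in 6.67%, 12.9% and 16.3%, against 8.86%. These matches describe the letters, and base composition differs between the groups: the median GC share was 58.7% in higher, 60.7% in lower and 62.3% in uncalled domains.

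At the width limit, Dhx34, a helicase (5001 bp, 0.39 ± 0.18, SE), and Dpy19l1, a C-mannosyltransferase family member (5001 bp, -0.02 ± 0.23, SE), were just inside in the authors' deposited table. Tmem123 (4991 bp, -0.34 ± 0.19, SE) and Calm3, a calmodulin gene (4991 bp, 0.33 ± 0.22, SE), were just outside. The 4 domains with no adjusted p all had low counts. They included the widest of all, 255911 bp assigned to the vomeronasal receptor gene Vmn1r247 with a mean normalized count of 2.42, and the 50581 bp domain of Tmem89 with 7.49. The other two, at Olfr564 and Jhy, had counts of 13.6 and 11.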

How the data were processed

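ATAC-seq was done on 3 resistant and 3 sensitive mouse NSCLC organoid libraries. The submitters' processing notes name mm10, DESeq2 1.26.0, ChIPseeker 1.22.1, featureCounts, deepTools, GATK 4.1.3, SAMtools 1.8, Bowtie2 2.2.1 and R 3.6.1 without their roles. How peaks were called, duplicates treated and Tn5 cuts shifted is not given in the sources used here. The authors deposited 1 table of their DESeq2 comparison. The signal that the authors deposited per peak is the mean of counts normalized across libraries. The authors' log2 fold change has a standard error and a Wald statistic, which is a score. The authors' p-value comes with an adjusted p-value over 102173 peaks. A further 6 columns of values per library match no sample label and were not used, nor was 1 column of other scores. The design assumed this, so no test of own was fitted to counts.

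Domains were called at the authors' adjusted p under 0.05. Window correction subtracted the median of each 5 Mb window with at least 20 tested peaks (else of the chromosome). The trend correction subtracted a lowess fit (fraction 0.3) of fold change on log mean count over all tested peaks, the domains included. A normal test with the deposited error and Benjamini-Hochberg adjustment was then repeated over all tested peaks. The window correction and the removal of both were tested on simulated data. The simulation held shifts of whole chromosomes, a trend with mean count and changes at some of the domains. It held no shift shared by most domains, so it cannot tell whether removal of the trend takes such a shift away. Other alternatives changed width, promoter distance, chromosomes, count filter, threshold and fold. A symbol that a spreadsheet had turned into a date (338 peaks, 7 domains) was replaced by gene identifier from RefSeq; 21186 of 21199 identifiers were found there. CpG observed over expected and motifs were counted in RefSeq promoter sequences (GRCm38.p6). Tools were matplotlib 3.10.9, statsmodels 0.14.6, SciPy 1.17.1, NumPy 2.4.6, pandas 2.3.3 and Python 3.11.15.

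Named were, without predicted genes and with the higher-count domain of a gene, the 8 largest called changes each way, the 6 widest and the 6 strongest domains, up to 3 called and 1 uncalled per list and direction, the domains at the width limit, the genes with most domains and the 3 uncalled domains with the smallest error. Some named genes are not reported here. The members and the gene lists were chosen with earlier results of these data known.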

Additional observations from a re-analysis of the deposited data

How the results depend on the processing

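As reported, 22 domains were higher and 558 lower, with a median of -0.30. The count higher was 41 with a width over 4000 bp, 0 over 10000 bp, 297 on all chromosomes, 37 after subtraction of the 5 Mb window medians, 89 after removal of the trend with mean count, 84 after both and 5 with a 2-fold limit. The count lower was 120 over 10000 bp, 1388 on all chromosomes, 314 after the windows, 224 after the trend, 144 after both and 110 with the 2-fold limit. The median was -0.033 after the trend and 0.032 after both. Leaving out a chromosome gave 15 to 22 higher, 404 to 544 lower and medians from -0.31 to -0.28. The share whose other peaks had the same sign was also counted with both directions together. It kept, for each gene identifier, the called domain with the highest mean count. This share was 84.7%, and 74.7% after the windows, and it is counted otherwise than the shares by direction given above. Ugt1a1 turned to 0.47 after the trend and 0.47 after both, Trpm8 to 0.38 and 0.39, and after both Plekhg2 was at 0.0045 and Bcl2l1 at 0.040. Of 78 named domains, 65 kept their side of the threshold after the windows, 52 after the trend and 44 after both. The causes were not tested. Removal of both was chosen after seeing the data. No paired analysis was possible because the value columns carry no sample label; for the same reason no library could be left out. Depth per library was not analysed here. At a median standard error of 0.19, the smallest called changes were 0.50 higher and -0.38 lower.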
